A study of Bos taurus with 2 samples.

Results

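Among the droplet barcodes of a bovine blastocyst library, 54 of 944 stood out by carrying few unique molecular identifiers (UMIs, 1 per captured RNA molecule) of which a large share came from ribosomal protein mRNAs. These 54 barcodes are called ribosomal-rich here. They were selected on measured values: at least 500 detected genes, fewer than 4000 UMIs, less than 10% of UMIs from the 13 mitochondrial mRNAs, and more than 5% of UMIs from genes named RPL, RPS, RPLP or RPSA. They made up 5.72% of the library's barcodes (exact 95% interval 4.33 to 7.40%), 6.48% of the 833 barcodes that passed the gene and mitochondrial limits, and 38.6% of the 140 of those with fewer than 4000 UMIs. Together they held 75831 UMIs, 1.08% of the library. The series holds 2901 barcodes in all.

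Single-nucleus RNA sequencing was run on wild-type cattle (Bos taurus) material of 2 kinds, with 1 library each. The blastocyst library came from frozen day 8 embryos, and the labels do not say how many embryos were pooled or how they were produced. The blastoid library, with 1957 barcodes, came from frozen blastoids, blastocyst-like structures that assembled in microwells from 8 bovine expanded potential stem cells (bEPSCs), 8 extraembryonic endoderm (bXEN) cells and 16 trophoblast stem cells (bTSCs). With 1 library per group no test between groups was possible. All intervals below are exact 95% intervals that cover counting error only, and barcodes of a library are not replicates of the embryo.

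Ribosomal protein mRNAs are short, abundant transcripts that are translated in the cytoplasm, and they are usually scarce in isolated nuclei, where unspliced RNA of long genes is common. Keratins 8, 18 and 19 form the intermediate filaments of simple epithelia. In the blastocyst they mark the trophectoderm, the outer epithelium that pumps fluid into the cavity and later forms the placenta, while the hypoblast underneath lays down basement membrane and the epiblast gives rise to the body. GATA2 and GATA3 are transcription factors of the trophectoderm.

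The ribosomal-rich barcodes were compared with 3 groups. The deep blastocyst barcodes had 4000 or more UMIs and passed the same gene and mitochondrial limits (693 barcodes, 6635229 UMIs). The shallow low-ribosomal blastocyst barcodes met every other limit but had at most 5% ribosomal protein UMIs (86 barcodes, 211713 UMIs). The shallow blastoid barcodes were those of the blastoid library with fewer than 4000 UMIs that passed the same gene and mitochondrial limits, at any ribosomal share (1656 barcodes, 3246024 UMIs). The libraries shared 1 barcode sequence, which was not among the 54.

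The measures used for the selection are given as a description. UMIs per ribosomal-rich barcode ran from 623 through a median of 1118 to 3662, and detected genes from 504 through 710.5 to 1805. The ribosomal protein share ran from 5.02% through a median of 9.13% to 29.5%, against medians of 0.835% in the deep barcodes, 1.62% in the shallow low-ribosomal barcodes and 15.9% in the shallow blastoid barcodes. The mitochondrial share had a median of 3.82%, against 0.40%, 0.90% and 1.64% in the same 3 groups. Just outside the limit the highest ribosomal share was 4.94%, and just inside it the lowest was 5.02%, with 6 barcodes at 4 to 5% and 5 at 5 to 6%. Among the genes that carried the share, RPS2 had 3125 UMIs per 1000000 (CPM) in the summed ribosomal-rich barcodes, 238 CPM in the deep barcodes and 3225 CPM in the shallow blastoid barcodes. Of the 1656 shallow blastoid barcodes, 1650 (99.6%) had more than 5% ribosomal protein UMIs; the 288 deep barcodes of that library had a median share of 2.88%.

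**Figure D1:**
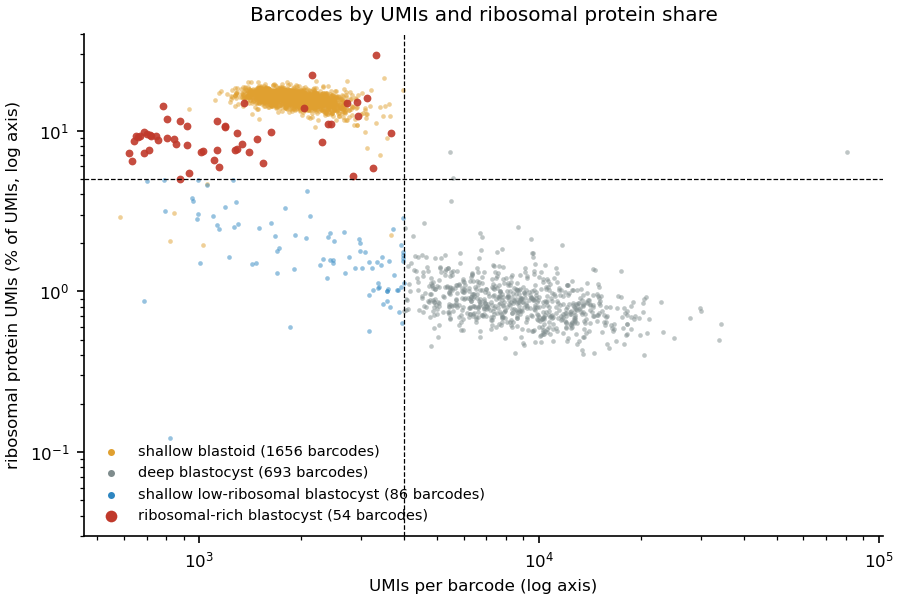
Each point is 1 barcode, by its UMIs (x, log axis) and the percent of them from ribosomal protein genes (y, log axis), and dashed lines mark 4000 UMIs and 5%. The 54 ribosomal-rich blastocyst barcodes (red) lie between 5.02% and 29.5%, in the corner that the shallow blastoid barcodes fill, and 3 of the 693 deep blastocyst barcodes lie above 5%.

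Keratin mRNA was 17.4-fold higher in the ribosomal-rich barcodes than in the deep barcodes (16.3 to 18.6). The selection did not use KRT8, KRT18 and KRT19, but these and FTH1 were given as markers of these barcodes with earlier results of these data known. Their levels are a description and no independent support. Summed over the 3 keratins, 1098 UMIs gave 14480 CPM (13636 to 15362) in the ribosomal-rich barcodes. The sum was 832 CPM (810 to 854) in the deep barcodes, 1219 CPM in the shallow low-ribosomal barcodes and 10494 CPM in the shallow blastoid barcodes. Each of the 3 genes was higher than in the deep barcodes. KRT18 stood at 9257 CPM (702 UMIs) against 498 CPM in the deep barcodes, 18.6-fold higher (17.1 to 20.2). KRT8, its filament partner, stood at 4035 CPM (306 UMIs) against 251 CPM, 16.1-fold higher (14.2 to 18.2). KRT19 stood at 1187 CPM (90 UMIs) against 82.1 CPM, 14.4-fold higher (11.4 to 18.1). These ratios rest partly on 1 deep barcode with 80592 UMIs and 7.37% ribosomal protein UMIs, which held 24.7% of all keratin UMIs of the deep barcodes; against the deep barcodes at 5% or less the keratin ratio was 23.5-fold (22.0 to 25.2).

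Many deep barcodes are not trophectoderm, so the keratin sum was also set against the 217 deep barcodes with 3 or more GATA2 and GATA3 UMIs, a range of a measured score and not a cell type. It stood at 1835 CPM there, 7.89-fold lower than in the ribosomal-rich barcodes (interval of the ratio 7.38 to 8.43), and at 194 CPM in the 370 deep barcodes without a GATA2 or GATA3 UMI. Against the low-ribosomal barcodes, which were also shallow (median 2482.5 UMIs against 1118), the ratio was 11.9-fold (10.4 to 13.7). Against the shallow blastoid barcodes it was 1.38-fold (1.30 to 1.47), with KRT18 1.48-fold higher (1.38 to 1.60), KRT8 1.65-fold higher (1.46 to 1.85) and KRT19 1.52-fold lower (1.24 to 1.90).

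FTH1, the heavy chain of the iron store ferritin, followed the keratins. Its level was 3442 CPM (261 UMIs, found in 44 of the 54 barcodes) against 207 CPM in the deep barcodes, 16.6-fold higher (14.5 to 19.0), and it was 7.59-fold higher (5.98 to 9.69) than in the shallow low-ribosomal barcodes and 1.52-fold higher (1.34 to 1.72) than in the shallow blastoid barcodes. IFI6, an interferon-induced gene given as a marker of these barcodes, was the exception. It had 1 UMI in the 54 barcodes (13.2 CPM) against 6.33 CPM in the deep barcodes, and its 288 CPM in the shallow low-ribosomal barcodes came from 5 of those 86. The keratin-bearing label holds for the sum but not for every barcode, as the spread below shows.

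**Figure D2:**
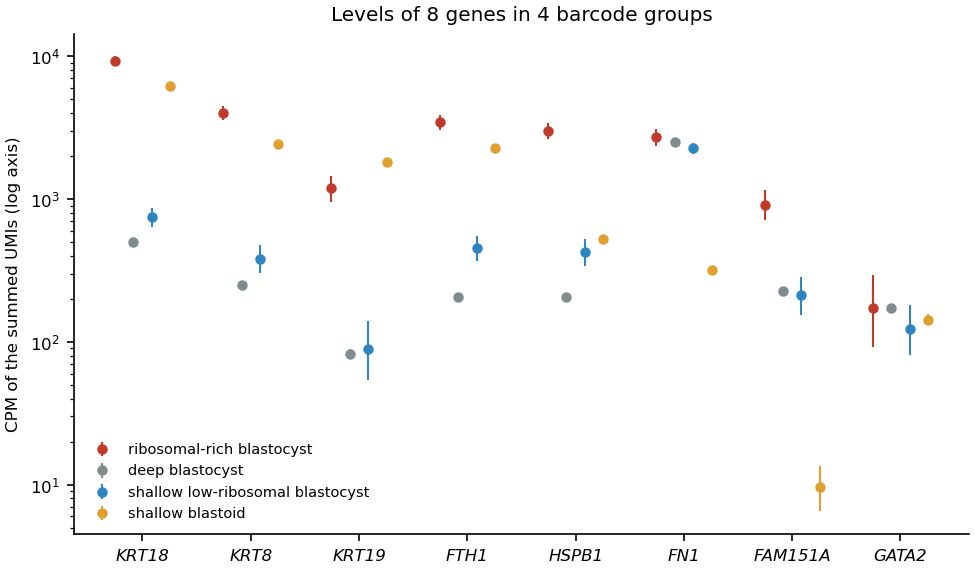
CPM (y, log axis) of 8 genes in the summed UMIs of the ribosomal-rich blastocyst barcodes (red) and 3 comparison groups, with exact 95% counting intervals where they exceed the point. KRT18, KRT8, KRT19, FTH1 and HSPB1 are over 10 times higher in red than in the deep blastocyst barcodes (grey), while FN1 at 2703 against 2496 CPM and GATA2 at 171 against 174 CPM lie side by side.

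Because UMIs per barcode differ, barcodes were also thinned to 500 UMIs each, which left out none of the 54. At that depth 79.6% of the ribosomal-rich barcodes (43 of 54, 66.5 to 89.4%) had a UMI of KRT8, KRT18 or KRT19. The share was 21.8% in the deep barcodes, 46.1% in those rich in GATA2 and GATA3, 8.92% in those without them, 37.2% in the shallow low-ribosomal barcodes and 99.3% in the shallow blastoid barcodes. Before thinning the shares were 94.4% in the ribosomal-rich barcodes at a median of 1118 UMIs and 84.0% in the deep barcodes at a median of 8606. The 8.92% came from barcodes with a median of 8066 UMIs before thinning, and it is no measure of free RNA in shallow barcodes. The 99 barcodes under 500 genes stood at 3121 keratin CPM against 194 CPM in the deep barcodes without GATA2 and GATA3, and the part of free RNA in the keratin share was not tested.

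Keratin was unevenly spread among the 54. KRT8, KRT18 and KRT19 together ran from 0 through a median of 5.42 to 61.3 per 1000 UMIs, with quartiles of 1.76 and 17.6. In the shallow blastoid barcodes the same measure had a median of 10.4 with quartiles of 8.76 and 12.1 and a highest value of 29.6, so that the interquartile range was 0.327 of the median there and 2.92 of the median here. A set of 13 ribosomal-rich barcodes had 20 or more keratin UMIs per 1000 and held 865 of the 1098 keratin UMIs (78.8%), and 4 barcodes held 533. No barcode of the 217 rich in GATA2 and GATA3 reached 20 per 1000 (median 1.18, highest 16.9), and 1 deep, 1 shallow low-ribosomal and 1 shallow blastoid barcode did. The line at 20 was drawn after the values were seen and is a range, not a type; the nearest barcodes stood at 19.7 and 20.6, and 3 lay between 15 and 25. The other 41 barcodes were not free of keratin: only 3 had none, and their sum of 4258 CPM was still 2.32-fold (2.02 to 2.65) that of the deep barcodes rich in GATA2 and GATA3.

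Rank correlations of keratin with the measures of the selection were weak, while sums by band differed. Across the 54 barcodes, which share 1 library, Spearman's rho of keratin per 1000 UMIs was 0.11 with the ribosomal share, 0.001 with UMIs and -0.04 with the mitochondrial share, all given as a description. By bands, the 37 barcodes at 5 to 10% ribosomal protein UMIs stood at 10948 keratin CPM with 6 of the 13 keratin-rich barcodes, and the 17 above 10% at 19250 CPM with the other 7. Over all 140 shallow barcodes the keratin sum went from 496 CPM at a ribosomal share of 0 to 1% through 867, 1431 and 2391 CPM to 8299 CPM at 4 to 5% (6 barcodes outside the limit), 7185 CPM at 5 to 6%, 11728 CPM at 6 to 8%, 12050 CPM at 8 to 10% and 28250 CPM at 10 to 15%, and stood at 2961 CPM in the 4 barcodes above 15%. Several bands rest on 1 barcode. At 4 to 5% 1 barcode held 30 of 57 keratin UMIs, and the band stood at 4811 CPM (3171 to 7000) without it. At 5 to 6% 1 barcode held 56 of 65, and without it the 4 left stood at 1450 CPM (663 to 2753), so the sums do not rise evenly across the limit. At 8 to 10% 1 barcode held 130 of 266, and the band stood at 7386 CPM without it. Without their leading barcodes the bands at 6 to 8%, 10 to 15% and above 15% stood at 8959, 24256 and 1316 CPM. Leaving these barcodes out was chosen after the values were seen.

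The keratin-rich and the remaining barcodes also differed in other genes. EZR, the linker of actin to the apical membrane, had 102 UMIs in the 13 keratin-rich barcodes against 50 in the other 41, 5.29-fold by CPM. ANXA2, a membrane-binding annexin, had 74 against 36 UMIs (5.33-fold), and LGALS3, galectin 3, 76 against 65 (3.03-fold). Other genes had fewer UMIs in the keratin-rich barcodes; like those above, they were chosen after their values were seen. FN1, fibronectin, had 10 UMIs (474 CPM) in the keratin-rich barcodes and 195 (3563 CPM) in the others; for comparison it stood at 629 CPM in the deep barcodes rich in GATA2 and GATA3 and at 3654 CPM in those without. COL4A1, a basement membrane collagen, had 0 against 13 UMIs and CKB, a creatine kinase, 16 against 115. The pluripotency factor NANOG had 0 against 6 and the transcription factor GATA6 1 against 9. These are raw counts out of 21107 UMIs in the keratin-rich barcodes and 54724 in the others, so fewer UMIs are due in the former at equal levels. The counts of NANOG and GATA6 are too small to show a difference. The difference in the hypoblast list rested mostly on FN1: its 27 genes summed to 2085 against 5774 CPM, but without FN1 to 1611 CPM (1116 to 2251) against 2211 CPM (1835 to 2642), and NID1 stood at 190 against 164 CPM and LRP2 at 569 against 585 CPM.

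To read this over many genes, 50 genes highest and 50 genes lowest in the deep barcodes rich in GATA2 and GATA3 relative to the deep barcodes without them were taken, leaving out keratins, GATA2, GATA3 and the genes of the selection; no ribosomal-rich barcode entered that choice. Of the UMIs on these 100 genes, the share on the GATA2 and GATA3 side was 90.2% in the deep barcodes rich in them and 6.31% in those without. Both values follow from the choice of the genes, which used these same groups. The share was 69.0% (65.8 to 72.0) in the ribosomal-rich barcodes as a whole. For comparison, it was 39.5% in all deep and 30.4% in the shallow low-ribosomal barcodes, and 80.1% in the shallow and 73.3% in the deep blastoid barcodes. In the 13 keratin-rich barcodes it was 94.3% (91.0 to 96.6; 280 against 17 UMIs), and all 13 had more UMIs on that side. In the other 41 it was 56.3% (52.1 to 60.3; 333 against 259 UMIs), with 21 barcodes on the GATA2 and GATA3 side, 13 on the opposite side and 7 with equal numbers. Genes on the GATA2 and GATA3 side included S100A14 with 60 UMIs in the 54 barcodes and the endocytic receptor LRP2, which the hypoblast list also holds, with 44. PLAC8A had 39 and the actin bundler PLS1 had 38. On the opposite side IGFBP2 had 38 UMIs, 5 of them in keratin-rich barcodes. RNA of genes with very long introns was also lower in the 54 than in the deep barcodes (below), and its part in the share was not tested. With the mitochondrial limit at 5% for all groups, which changes the choice of the 100 genes, the shares were 55.6% in all, 88.5% in the keratin-rich and 43.7% in the other barcodes; with the 100 genes kept, the 39 barcodes under 5% stood at 70.0%.

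**Figure D3:**
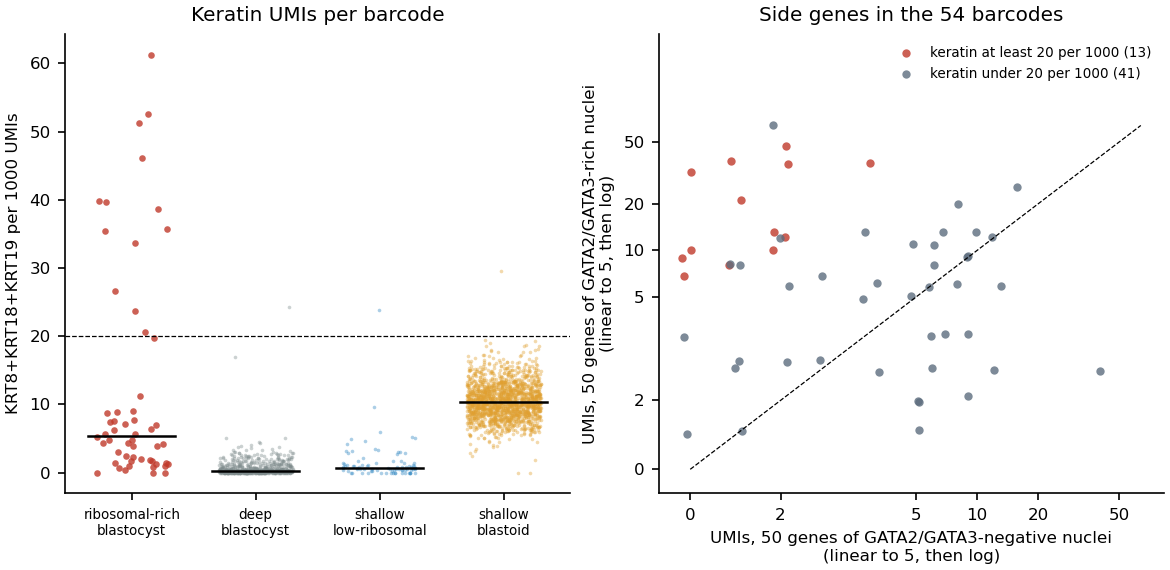
Left, KRT8, KRT18 and KRT19 UMIs per 1000 UMIs of each barcode in 4 groups, with medians as bars and a dashed line at 20. Right, for each of the 54 ribosomal-rich barcodes, UMIs on the 50 genes of the GATA2 and GATA3 side (y) against UMIs on the 50 genes of the opposite side (x), slightly jittered, linear to 5 and log above, with a dashed line at equality; the 13 keratin-rich barcodes (red) all lie above it, and the other 41 lie on both sides.

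Lineage regulators themselves were thinly covered. Of 19 trophectoderm regulators, 13 had at least 1 UMI in the 54 barcodes, together 112 UMIs in 40 barcodes. GATA2 had 13 UMIs, at 171 CPM against 174 CPM in the deep barcodes (ratio 0.988, 0.525 to 1.70), and it was seen in 7 of the 13 keratin-rich and in 3 of the other 41 barcodes. KLF5, a Krüppel-like factor of the early embryo, had 33 UMIs at 435 CPM, 1.46-fold lower (1.04 to 2.13) than in the deep barcodes, a direction that turned when ratios were divided by the median ratio of all genes (log2 0.35). GATA6 had 10 UMIs at 132 CPM against 780 CPM, 5.91-fold lower (3.21 to 12.3). UMIs of trophectoderm regulators and of hypoblast genes occurred together in 39 of the 54 barcodes, and epiblast genes in 30, so no lineage name was given to a barcode.

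Over all genes, the ribosomal-rich barcodes differed widely from the deep barcodes. Of 1591 genes with enough UMIs, 412 (25.9%) were at least 2-fold higher and 753 (47.3%) at least 2-fold lower, with a median log2 ratio of -0.90. Divided by that median ratio, 538 were higher and 364 lower, so the split between higher and lower genes depends on the scaling. Genes with the highest ratios outside the selection were FAU, which encodes a ribosomal protein fused to a ubiquitin-like protein (21.0-fold, 16.6 to 26.2), the ubiquitin gene UBB (19.7-fold), KRT18, the myosin light chain MYL6 (1385 against 81.7 CPM), the respiratory chain subunit COX6A1 (16.7-fold), FTH1, the actin regulator PFN1 (16.1-fold), KRT8, S100A16 (15.1-fold) and NACA, which binds nascent proteins at the ribosome (14.6-fold). Genes with the lowest ratios included IL6ST, the shared receptor of the interleukin 6 family (3 UMIs, 39.6 CPM against 533 CPM, 13.5-fold lower, 4.61 to 65.4), GRIP1 (6 UMIs, 79.1 against 917 CPM) and the methyltransferase gene SMYD3 (3 UMIs, 39.6 against 544 CPM). ATRN had 2 UMIs against 4133 in the deep barcodes.

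Cytoplasmic housekeeping groups had higher summed levels over all listed genes with a symbol. The counts of single genes beside the sums are a description only, since a gene with few UMIs in the other sum was compared only if it was high in the ribosomal-rich sum, and the reverse; this holds for every list and comparison below. The 24 genes listed as translation factors summed to 16998 CPM against 2686 CPM in the deep barcodes. They include FAU (1279 against 61.0 CPM) and RACK1, a scaffold on the small ribosomal subunit (857 CPM in the ribosomal-rich barcodes). These belong to the ribosome itself, so the list is partly of the same kind as the genes of the selection. Of the 22 compared, 20 were at least 2-fold higher and 0 lower, and the levels in the deep barcodes alone would have let in 7, of which 5 were higher. EEF1A1, which delivers tRNAs to the ribosome, stood at 1517 against 167 CPM (9.07-fold) and TPT1, the translationally controlled tumour protein gene, at 2031 against 157 CPM (12.9-fold). The 77 nuclear genes of oxidative phosphorylation summed to 20467 against 3662 CPM; 40 of them had too few UMIs to compare, and 35 of the other 37 were higher and 0 lower, though the deep levels alone would have let in only 3, 1 of them higher. The 17 glycolysis genes summed to 6501 against 1417 CPM, with 10 of 11 compared higher, among them GAPDH at 1240 against 129 CPM. The 22 cytoskeleton genes summed to 22128 against 2939 CPM, with 17 of 18 higher and ACTB at 5103 against 376 CPM (13.6-fold, 12.1 to 15.1). The 20 S100 and annexin genes summed to 5038 against 1201 CPM, with 7 of 7 compared higher. The 21 chaperones summed to 18383 against 3382 CPM, with 16 of 16 higher and the small heat shock protein HSPB1 at 2994 against 205 CPM (14.6-fold, 12.6 to 16.8). The 19 redox genes summed to 5433 against 1002 CPM, with 5 of 6 higher, PRDX1 at 1833 against 205 CPM. Among all genes compared, to which the same filter applied, 25.9% were higher.

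Other lists differed less or the other way. The 34 genes with very long introns summed to 4484 CPM against 16809 CPM in the deep barcodes. Of the 21 compared, 20 were at least 2-fold lower and 0 higher (median log2 -1.97, against -0.90 for all genes). All 21 were let in by their deep levels alone. That filter favours genes lower in the ribosomal-rich barcodes, so the count is a description only. WWOX had 32 UMIs (log2 ratio -1.76) and DIAPH3, an actin nucleator, 39 UMIs (log2 ratio -1.81). Of 10 hypoblast genes compared 5 were lower and 0 higher (median -1.02), near the 47.3% of all genes. Of 5 trophectoderm regulators 1 was lower (median -0.71, which becomes 0.19 when divided by the median of all genes). Against the 217 deep barcodes rich in GATA2 and GATA3, where 26.8% of 1522 genes were at least 2-fold higher and 47.3% at least 2-fold lower (median log2 -0.85), 5 of 6 regulators were lower (median -1.47). GATA2 and GATA3, which chose that group, are 2 of the 5. The other 17 regulators, 13 of them with too few UMIs to compare, summed to 1226 against 2579 CPM there and 2094 CPM in all deep barcodes, and 3 of the 4 compared were lower: TEAD1, a partner of the Hippo pathway's YAP (2.87-fold, 1.81 to 4.85), GRHL1 (3.82-fold, 1.93 to 8.88) and KLF6 (2.31-fold, 1.32 to 4.50). The 20 junction genes summed to nearly equal levels, 3521 against 3327 CPM. Of the 12 compared 4 were higher and 3 lower, and of the 9 that the deep levels alone would have let in, 1 was higher and 3 lower. CLDN4, a tight junction claudin, was 5.40-fold higher (3.26 to 8.48), while CDH1, E-cadherin, stood at 554 against 618 CPM and TJP1, the scaffold ZO-1, was 2.40-fold lower (1.37 to 4.64). The 12 genes listed for ion and water transport into the cavity summed to 5499 against 1901 CPM, and 4 of the 5 compared were higher, where the deep levels alone would have let in 3 with 2 higher. Of the 4, ATP1B3, a beta subunit of the sodium and potassium pump (2.47-fold, 2.04 to 2.96), and ATP6V0C, a subunit of the vacuolar proton pump (8.86-fold, 5.96 to 12.8), belong to ion pumps. The other pair, EZR (3.58-fold, 3.03 to 4.22) and its binding partner NHERF1 (739 against 117 CPM), are membrane adapters that move no ions or water themselves. The water channel AQP3 had too few UMIs to compare (16, at 211 against 32.9 CPM). Against the deep barcodes rich in GATA2 and GATA3 only 2 of 5 were higher and 0 lower (median log2 0.78, against 1.84 for all deep barcodes), with EZR 1.72-fold higher (1.45 to 2.03) and NHERF1 at 739 against 223 CPM. Thinned to 500 UMIs, EZR was found in 33.3% of the ribosomal-rich barcodes (21.1 to 47.5), 45.2% of those rich in GATA2 and GATA3 (38.4 to 52.0) and 20.9% of all deep barcodes, so the share does not follow the order of the CPM; 102 of the 152 EZR UMIs lay in the 13 keratin-rich barcodes.

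The 86 shallow low-ribosomal barcodes, set apart by the ribosomal limit itself, differed in the same lists. Against them, 371 of 1518 genes (24.4%) were at least 2-fold higher and 540 (35.6%) at least 2-fold lower, with a median log2 ratio of -0.49. In summed CPM, translation factors stood at 16998 against 4379, oxidative phosphorylation at 20467 against 5682, the cytoskeleton list at 22128 against 4553, glycolysis at 6501 against 1899 and chaperones at 18383 against 5805. Among the genes compared, 19 of 23, 34 of 39, 16 of 18, 10 of 12 and 9 of 17 were higher in the same order of lists. Of those that the low-ribosomal levels alone would have let in, 12 of 15, 6 of 10, 10 of 12, 4 of 5 and 9 of 16 were higher. S100A16 was 13.5-fold higher (7.37 to 26.8), RACK1, a scaffold on the small ribosomal subunit, 9.07-fold (5.43 to 15.8) and the myosin light chain MYL12A 8.01-fold (4.92 to 13.5). Genes with very long introns were lower for 13 of 18 and higher for 0, and all 18 were let in by their low-ribosomal levels alone, which favours lower genes. Among the lowest were MTOR, the growth control kinase, with 6 against 217 UMIs (79.1 against 1025 CPM), and the phosphodiesterase gene PDE3B with 3 against 119 UMIs (14.2-fold lower, 4.75 to 69.9).

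**Figure D4:**
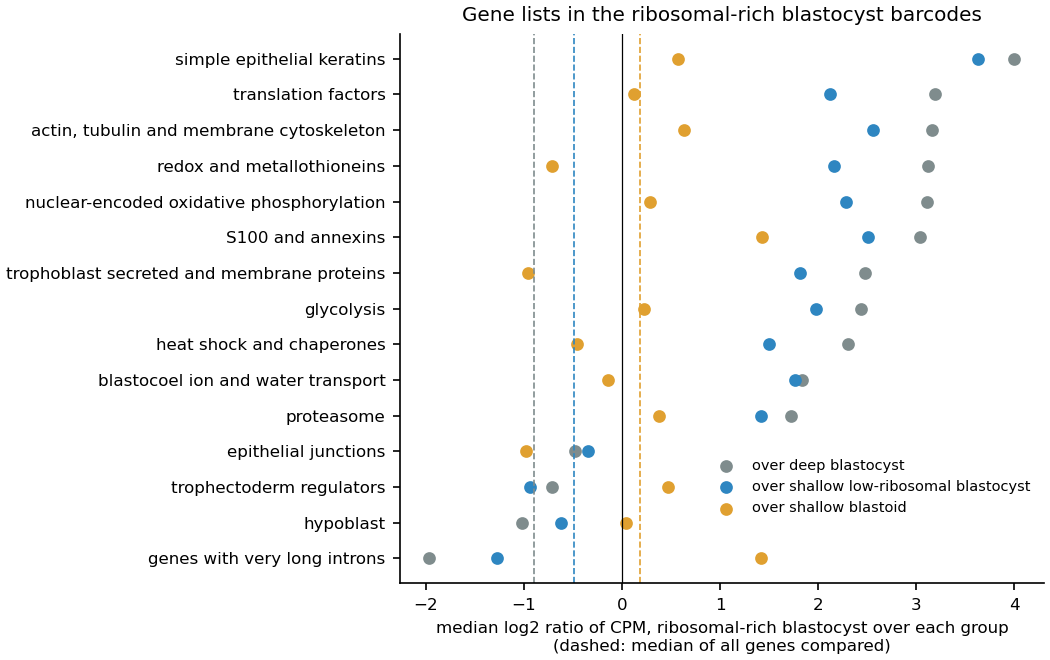
Median log2 ratio of CPM of the ribosomal-rich blastocyst barcodes over 3 comparison groups (colours) for 15 gene lists, over the genes compared, with dashed lines at the median of all genes compared in each. Keratin, translation, cytoskeleton and respiratory chain lists lie above 2 against both blastocyst groups and between 0 and 1 against the shallow blastoid barcodes; genes with very long introns lie at -1.97, -1.27 and 1.42, the last over 10 genes of which the blastoid levels alone would have let in 4.

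Against the shallow blastoid barcodes the housekeeping lists lay nearer, some above and some below. Of 1108 genes compared 227 (20.5%) were at least 2-fold higher and 165 (14.9%) at least 2-fold lower, with a median log2 ratio of 0.19. Translation factors summed to 16998 against 17626 CPM, with 1 of 23 higher and 1 lower, and glycolysis genes to 6501 against 6887 CPM, with 0 of 11 past 2-fold in either direction. Oxidative phosphorylation genes summed to 20467 against 17712 CPM; 9 of 55 were higher and 2 lower, and of the 47 that the blastoid levels alone would have let in, 3 were higher and 2 lower. Cytoskeleton genes summed to 22128 against 15481 CPM (6 of 21 higher and 1 lower). Their sum was 36197 CPM in the keratin-rich barcodes and 16702 CPM in the other ribosomal-rich barcodes, the latter close to the blastoid level. Chaperones summed to 18383 against 18445 CPM (1 of 18 higher and 3 lower). Redox genes summed to 5433 against 7385 CPM (1 of 10 higher and 3 lower). EEF1A1 stood at 1517 against 1769 CPM (ratio 0.857, 0.707 to 1.03). S100 and annexin genes summed to 5038 against 2499 CPM, with 5 of 8 higher and 1 lower. Among the higher genes were ANXA2 (3.38-fold, 2.76 to 4.11) and S100A16 (3.29-fold, 2.51 to 4.26). This list stood at 9949 CPM in the keratin-rich barcodes and at 3143 CPM in the other ribosomal-rich barcodes, nearer the blastoid level. Genes with very long introns summed to 4484 against 2666 CPM. Of the 10 compared 6 were higher and 0 lower, but of the 4 that the blastoid levels alone would have let in, 1 was higher.

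FAM151A parted the ribosomal-rich barcodes from the blastoid barcodes most. It had 69 UMIs in 35 of the 54 barcodes (910 CPM) against 31 UMIs in all 1656 blastoid barcodes (9.55 CPM), 95.3-fold higher (61.5 to 151), and it stood at 227 CPM in the deep blastocyst barcodes. FN1 was 8.43-fold higher (7.22 to 9.80; 2703 against 321 CPM) and close to the deep barcodes' 2496 CPM. The scaffold gene AKAP12 (30.3-fold, 19.8 to 45.9), the glutamate dehydrogenase gene GLUD1 (514 against 46.8 CPM), CKB (6.06-fold, 5.00 to 7.28) and HSPB1 (5.72-fold, 4.95 to 6.57) were higher as well. KLF5 was 4.66-fold higher (3.15 to 6.69). Deep blastocyst barcodes also held more FAM151A, FN1, AKAP12, GLUD1 and KLF5 than the shallow blastoid barcodes, but less HSPB1 (205 against 524 CPM) and less CKB (208 against 285 CPM). Library and source were the same split here and cannot be told apart.

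Genes of the opposite kind were abundant in the blastoid barcodes and nearly missing here. PAGE4 had 2 UMIs against 4859 (26.4 against 1497 CPM), the growth factor midkine, MDK, 2 against 4648 (26.4 against 1432 CPM), and the filament protein vimentin, VIM, 1 against 1879 (13.2 against 579 CPM). PTN, pleiotrophin, had 0 UMIs against 1866 (575 CPM). The lipid and redox enzymes MGST1 (3 UMIs, 13.2-fold lower, 4.52 to 64.3), SCD (5 UMIs, 10.8-fold lower, 4.61 to 33.2) and PRDX4 (5 UMIs, 9.62-fold lower, 4.12 to 29.7) were lower too. PAGE4, MDK, VIM and MGST1 stood at or below 8.74 CPM in the deep blastocyst barcodes. The 14 genes for secreted or membrane proteins of trophoblast summed to 4879 against 5919 CPM, with the cathepsin gene CTSV higher (log2 2.43) and SSLP1 lower (3 UMIs, 39.6 against 778 CPM); the deep barcodes stood at 1051 CPM for the list.

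Values that moved with the ribosomal share are given beside these results; their part in them was not tested. Markers of other cell types were nearly absent: fibroblast genes had 2 UMIs in the 54 barcodes with 12 of 13 genes at 0, cumulus and granulosa genes 2 UMIs with 11 of 13 at 0, and blood or immune (14 genes) and sperm genes (8 genes) had 0. The last pair of lists stood at 12.1 and 2.41 CPM in the deep barcodes, so that a difference between 0 UMIs and those levels was not detectable in 75831 UMIs. In summed CPM the fibroblast list stood at 26.4 in the ribosomal-rich, 148 in the deep, 231 in the shallow low-ribosomal and 85.6 in the shallow blastoid barcodes. The nearest profiles in the same library were those of barcodes left out by the limits. Over 1343 genes without keratins and genes of the selection, Spearman's rho with the summed ribosomal-rich barcodes was 0.70 for the 99 barcodes under 500 genes, 0.64 for the 12 shallow barcodes with 10% or more mitochondrial UMIs, 0.29 for the shallow low-ribosomal and 0.16 for the deep barcodes, and 0.59 for the shallow blastoid barcodes. These are correlations across genes, which are not replicates, and the sums differ in depth from 22521 to 6635229 UMIs. The 12 barcodes with high mitochondrial share had 7815 keratin CPM and the 99 with few genes 3121 CPM.

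Features without a gene symbol carried 16.7% of the UMIs of the ribosomal-rich barcodes and 15.2% of those of the deep barcodes. The leading feature, ENSBTAG00000043567, stood at 29803 against 3085 CPM in the deep barcodes, with 1010 of its 2260 UMIs in 1 barcode of 2435 UMIs, and ENSBTAG00000066082 at 21785 against 7237 CPM. ENSBTAG00000061247 was lower, at 13688 against 42895 CPM.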

How the data were processed

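The authors deposited UMI counts by gene and barcode as 1 matrix per library. Per the file headers, Cell Ranger 7.2.0 wrote them; the submitters' processing notes name Cell Ranger 7.1.0 and Seurat 4.3.0, and the chemistry was version 3.1 per the labels' protocols. The genome build and whether intronic reads were counted are not given in the sources used here. The libraries held 7029253 (blastocyst) and 7575395 (blastoid) UMIs. Symbols came from the deposited feature lists (35643 features, 16116 without a symbol), and counts of repeated symbols were summed. The rule's name pattern matched 79 symbols, 11 of them S6 kinases or RPS19BP1; without these the same number of barcodes, 54, was selected.

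Counts were summed over the barcodes of each group and divided by all UMIs of the sum (CPM). Genes were compared where their mean CPM over both sums was worth at least 10 UMIs in the smaller sum, and called at 2-fold. Sums under 3 UMIs were set to 3 in ratios. Ratios carry exact conditional binomial intervals, CPM exact Poisson and shares Clopper-Pearson intervals. Named genes are those of the lists and the 10 highest and 10 lowest ratios per comparison worth at least 20 UMIs, plus side genes. Some genes and their results are not reported here. No doublets were removed; removal by Scrublet score (scanpy 1.11.5) was an alternative. Members, gene lists and comparisons were chosen with earlier results of these data known, and the keratin line of 20 per 1000 and the 100 side genes after the data were seen. The ratio step was tested on simulated counts. Thinning drew 500 UMIs per barcode without replacement, with seed 1, using numpy 2.4.6.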

Additional observations from a re-analysis of the deposited data

How the results depend on the processing

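No paired analysis was possible because each group had 1 library, and leaving out replicates was not possible for the same reason. Depth limited the gene comparisons, since 75831 UMIs give a gene at 10 UMIs a wide interval. Keratin stayed above the deep barcodes under each alternative run, with log2 ratios from 3.94 to 5.02 against 4.12 as reported. Among values whose interval lay on 1 side of 0, dividing ratios by the median ratio of all genes turned AKAP12 (log2 0.26) and KLF5 (0.35) against the deep barcodes, and the median of the trophectoderm regulators (0.19). Values whose interval spanned 0 also changed sign, such as junctions against deep (from -0.48) on that division and transport against blastoid (from -0.15) under other limits.

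With a mitochondrial limit of 5% the ribosomal-rich barcodes were 4.89% of those kept, the keratin log2 ratio was 4.56, genes higher and lower than deep were 246 and 363, and higher and lower than the blastoid barcodes 130 and 87. The side shares were 55.6% in all, 88.5% in the keratin-rich and 43.7% in the other barcodes, and the glycolysis median against deep was 3.25. With a ribosomal limit of 8% the share was 4.44%, keratin 4.29, genes lower than deep 467, and higher and lower than blastoid 128 and 102; the side share was 72.4%, glycolysis 3.36 and the long-intron median against blastoid 0.72. With 4% the medians for transport and junctions against blastoid were 0.52 and -0.33 and for the proteasome against deep 2.46. From 700 genes the share was 3.38%, keratin 4.28, genes lower than deep 444, and higher and lower than blastoid 144 and 107; medians against deep were 3.58 (cytoskeleton), 3.24 (glycolysis) and 0.65 (proteasome), and for junctions against blastoid -1.56. From 300 genes the share was 9.83%, keratin 3.94, the side share 65.5%, and transport and junctions against blastoid 0.41 and -0.35. Up to 6000 UMIs the side shares were 65.4% in all and 50% in the barcodes with less keratin, and transport against blastoid was 0.63.

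Over UMIs outside the genes of the selection, keratin was 4.33 and the proteasome 2.41. Divided by the median ratio, keratin was 5.02, 364 genes were lower than deep, and by construction every list median against deep moved up alike: translation factors 4.09, cytoskeleton 4.06, redox 4.02, oxidative phosphorylation 4.01, S100 and annexins 3.94, trophoblast proteins 3.38, glycolysis 3.34, chaperones 3.21, transport 2.74, proteasome 2.62, G2 and M phase 1.89, junctions 0.42 and long introns -1.07. With a gene minimum of 5 UMIs, 847 genes were higher and 1493 lower than deep and 620 and 363 than blastoid, with medians of 2.25 (transport) and 1.85 (chaperones) against deep and -0.29 (junctions) against blastoid. With 30 UMIs the counts were 110 and 116, and 32 and 43, and the cytoskeleton median was 3.60; fewer genes are compared there by construction. Thinned to 1000 UMIs, shares of barcodes with a UMI were 93.3% (FTH1), 83.3% (KRT18), 73.3% (KRT8) and 43.3% (KRT19), over the 30 barcodes that reach that depth, against 66.7%, 70.4%, 57.4% and 27.8% at 500.

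Alternatives chosen after seeing the data gave keratin log2 ratios of 4.56 against deep barcodes at 5% ribosomal UMIs or less, 3.96 without the barcode with the most keratin UMIs and 4.22 without the barcodes above 20% ribosomal UMIs. With 20 genes on each side the shares were 74.3% in all and 64.5% in the barcodes with less keratin, and with the keratin line at 10 the latter was 51%. Removing barcodes by doublet score left all 54 in place. The cause of these moves was not tested unless the construction is named.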

Other observations

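Some gene groups had too few UMIs in the ribosomal-rich barcodes to be described beyond single genes. Of the proteins that endoderm secretes, 12 of 17 genes had no UMI in the 54 barcodes. APOA1, the main protein of high density lipoprotein, stood at 1147 CPM (87 UMIs in 38 barcodes), 6.55-fold higher (5.20 to 8.14) than in the deep blastocyst barcodes and close to the 1254 CPM of the shallow blastoid barcodes (ratio 0.915, 0.731 to 1.13). It stood at 1334 CPM in the 41 barcodes with less keratin and at 663 CPM in the 13 keratin-rich ones. Interferon response genes summed to 686 CPM (52 UMIs), against 238 CPM in the deep, 746 CPM in the shallow low-ribosomal and 1477 CPM in the shallow blastoid barcodes, and 21 of the 30 genes with a symbol had no UMI.

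The 38 proteasome genes summed to 5697 CPM against 2033 CPM in the deep barcodes. Of the 12 compared 7 were higher and 2 lower, where 25.9% of all 1591 genes compared were higher and 47.3% lower. The 7 were compared only because of their level in the ribosomal-rich sum. Of the 4 that the deep levels alone would have let in, 0 were higher and 2 lower, and no share of all genes under that filter is given here. The 21 genes of the G2 and M phases summed to 3363 against 1713 CPM, and of the 5 that the deep levels alone would have let in, 1 was higher and 0 lower. CTSV, a cathepsin, was among the genes higher against both the deep barcodes (log2 2.28) and the shallow blastoid barcodes (log2 2.43).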
